A study of Mus musculus with 3 samples.

Results

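The nuclei described here are cardiomyocyte nuclei rich in Fgf13 and Fhl2 from the aortic valve region of newborn mice. They were selected on their own counts: a nucleus needed at least 1000 UMIs (unique molecular identifiers, each marking 1 captured RNA molecule), at most 5% of them from the 13 mitochondrial genes, and at least 1% from Ryr2, Ttn, Myh6, Tnnt2 and Actn2 together. It also needed at least 2 UMIs of Fgf13 and Fhl2 together, and more of these than of Erc2, Kcnh7, Lrrc4c and Lrtm1 together. The rule found 2573 such nuclei among 14073 that passed the UMI and mitochondrial limits, and among 21140 deposited. Pool 1 gave 1066, pool 2 gave 673 and pool 3 gave 834.

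The study profiled aortic valve structures of mouse pups at postnatal day 1, with 22 to 24 aortic roots combined in each of 3 pooled replicates of 1 group. All pups carried the same background and allele, B6.Cg-Scx<tm1.1(EGFP)Skom, listed as RBRC11098, in which EGFP is tied to the Scx locus, and the labels name no treatment or other genotype. Zygosity is not given in the sources used here, and with 1 group no conditions were compared. Nuclei from frozen tissue went through the 10x Genomics Multiome assay, which reads RNA and open chromatin together, and the RNA counts alone were analysed here.

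Cardiomyocytes are the contracting cells of the heart, and the muscle that borders the valve at the aortic root lies close to both the ventricle and the outflow tract. Fgf13 encodes a fibroblast growth factor homologous factor, a protein that stays inside the cell, binds the tail of voltage-gated sodium channels and tunes their inactivation. Fhl2 encodes a protein of repeated LIM domains that sits at the sarcomere of heart muscle, where it binds titin, and also acts as a cofactor of transcription factors. Ryr2 is the calcium release channel of the sarcoplasmic reticulum, and Ttn, Myh6, Tnnt2 and Actn2 build the sarcomere.

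Promoter windows of both genes are shown because high counts of Fgf13 and Fhl2 in the same nuclei define the class. RefSeq (GRCm38.p6) lists 4 starts for Fgf13 and 2 for Fhl2, and the 250 bases before each were searched on both strands for the SRF CArG box, the MEF2 site, a GATA motif (AGATAA), a TEAD motif (CATTCC) and TATAAA. The windows lie on the minus strand at chrX:59585573-59585822 for the first Fgf13 start and at chr1:43163962-43164211 for the second Fhl2 start. Each is printed 5′ to 3′ along the gene, with matches in capitals.
Fgf13, first listed start: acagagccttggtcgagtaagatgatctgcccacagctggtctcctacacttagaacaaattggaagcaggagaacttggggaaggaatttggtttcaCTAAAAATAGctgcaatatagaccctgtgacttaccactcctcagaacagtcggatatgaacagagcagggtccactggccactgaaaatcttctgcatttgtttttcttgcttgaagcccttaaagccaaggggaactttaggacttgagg
Fhl2, second listed start: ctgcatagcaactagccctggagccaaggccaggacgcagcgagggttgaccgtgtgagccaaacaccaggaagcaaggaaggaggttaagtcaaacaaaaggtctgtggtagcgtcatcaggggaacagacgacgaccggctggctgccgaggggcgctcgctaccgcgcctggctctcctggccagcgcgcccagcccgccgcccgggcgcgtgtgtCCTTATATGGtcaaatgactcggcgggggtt
The capitals mark a MEF2 site in the Fgf13 window and a CArG box in the Fhl2 window. The window of the other Fhl2 start held a CArG box, an AGATAA match on the reverse strand, and a MEF2 site that overlaps a reverse TATAAA match, and the other Fgf13 windows held no match. Among all 32851 windows of this length, 1.47% held a CArG box, 2.92% a MEF2 site, 9.99% AGATAA, 12.6% CATTCC and 12.4% TATAAA. A match describes the letters of the window, and which start these nuclei use was not measured.

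Pool 1 held 49918251 UMIs, pool 2 held 25341316 and pool 3 held 21254247. The median Fgf13 Fhl2 nucleus had 6025 UMIs in pool 1, 7104 in pool 2 and 5260 in pool 3, above the medians of 4270, 4385 and 2964 in the kept nuclei that did not reach 1% for the 5 cardiomyocyte genes, called the rest. In pool 3, 1 Fgf13 Fhl2 nucleus held 348249 of the 7012288 UMIs of its class. The pools shared between 44 and 99 barcodes in pairs, of which at most 3 were in Fgf13 Fhl2 nuclei of both pools. Some cardiomyocyte genes, such as Rbm20, were higher in the rest of pool 3 than in the rest of the other pools, although the median share of the 5 cardiomyocyte genes was lowest there (0.0395% against 0.0519% and 0.0604%). The deepest nucleus of the rest held 88215, 102223 and 251275 UMIs in pools 1, 2 and 3, and the part of deep nuclei in these levels was not tested. Counts of genes against the rest are given with and without pool 3.

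The Fgf13 Fhl2 nuclei were the majority of cardiomyocyte nuclei in every pool. They made up 82.5% of them in pool 1 (95% Wilson interval 80.3 to 84.5), 85.4% in pool 2 (82.8 to 87.7) and 84.9% in pool 3 (82.6 to 87.0), or 84.3% ± 1.55 (SD, n = 3 pools). Of all kept nuclei they were 19.3% ± 3.77. The other 489 cardiomyocyte nuclei fell into an Erc2 side of 363, with at least 2 UMIs of the 4 opposing genes and no fewer of these than of Fgf13 and Fhl2, and 126 that reached neither. Intervals cover counting error only.

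Depth moved with this division. Among cardiomyocyte nuclei with 1000 to under 2000 UMIs, the Fgf13 Fhl2 class took 51.5%, 47.7% and 72.1% in pools 1, 2 and 3, and among those with 8000 to under 16000 UMIs it took 89.0%, 91.6% and 91.0%. The nuclei of neither side were shallow, with medians of 1831, 1686 and 2972 UMIs, and had a median mitochondrial share of 2.88%, 3.00% and 1.39% against 0.464%, 0.506% and 0.331% in the Fgf13 Fhl2 class. Erc2 side nuclei were closer in depth, with medians of 5802, 6228.5 and 4250.0 UMIs, so they are given as a second comparison throughout. The part of depth in the division itself was not tested.

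**Figure D1:**
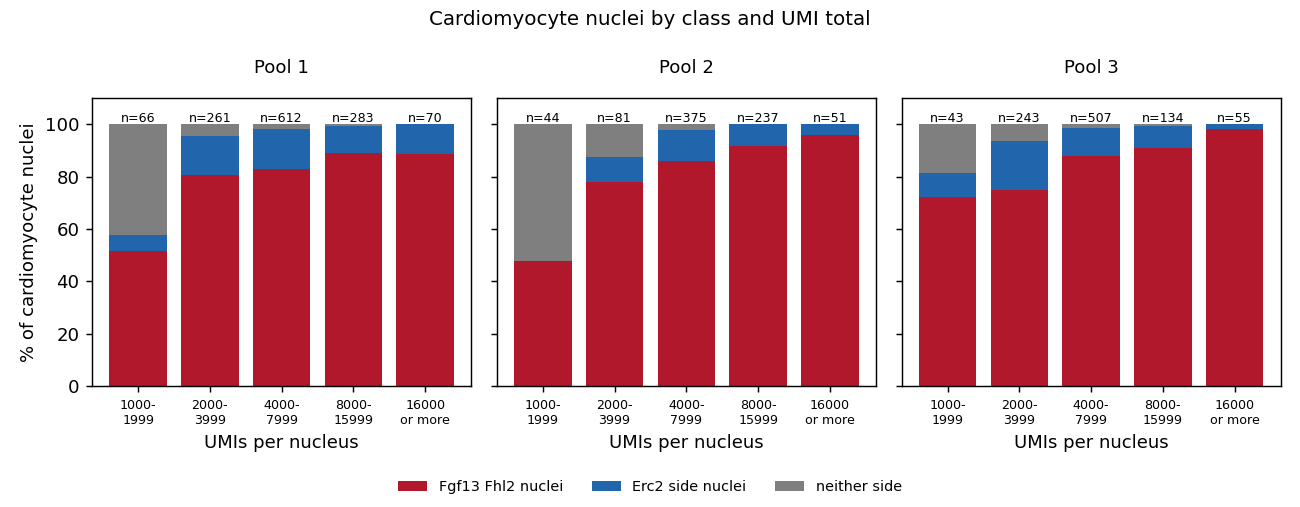
Share of cardiomyocyte nuclei (y axis, percent) in the Fgf13 Fhl2 class, on the Erc2 side and on neither side, in 5 ranges of UMIs per nucleus (x axis), with 1 panel for each pool and the number of cardiomyocyte nuclei above each bar. The Fgf13 Fhl2 class takes the largest share in every range except the lowest range of pool 2, and the nuclei of neither side take their largest share in the lowest range of each pool.

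The levels of the genes that chose the class are a description only. Fgf13 stood at 2552, 2699 and 2483 CPM (counts scaled to the same total of UMIs in each sum) in the summed Fgf13 Fhl2 nuclei of pools 1, 2 and 3, and at 431, 494 and 508 on the Erc2 side. Fhl2 stood at 2784, 2442 and 2329 CPM against 193, 119.9 and 192. The median nucleus of the class carried 35, 37 and 32 UMIs of both genes together, far from the limit of 2, and 92.3%, 92.7% and 91.6% of the nuclei held at least 1 UMI of each. A UMI of at least 1 of the 4 opposing genes was present in 42.7%, 48.4% and 47.0% of the class.

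At an equal depth of 1000 UMIs per nucleus, Fgf13 was seen in 80.4% ± 1.44 (SD, n = 3 pools) of the class and 32.9% ± 5.15 of Erc2 side nuclei, and in 4.36% ± 0.713 of endothelial-marker nuclei, which serve as the background of free RNA. These had medians of 5399, 5348 and 3774 UMIs, and without thinning the shares were 95.6%, 64.3% and 14.2%. Fhl2 was seen in 80.0% ± 1.75, 12.3% ± 3.70 and 8.36% ± 0.912 after thinning, and in 96.6%, 40.7% and 28.6% without it. The rule itself holds these shares up in the class and down on the Erc2 side. Of the opposing genes, Erc2 was seen after thinning in 6.59% ± 0.928 of the class, 47.6% ± 3.54 of the Erc2 side and 1.91% ± 0.133 of endothelial-marker nuclei.

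Nuclei on both sides of each limit of the rule are given as a description. Nuclei of the class with exactly 2 UMIs of Fgf13 and Fhl2 numbered 14, 11 and 10, and their summed Gja1 level was 54.9, 115 and 31.4 CPM. Cardiomyocyte nuclei just outside, with 1 such UMI and none of the 4 opposing genes, numbered 19, 13 and 16 and held Gja1 at 33.5, 56.5 and 80.2 CPM. Nuclei with 0.5 to 1% of UMIs from the 5 cardiomyocyte genes that met every other condition numbered 73, 39 and 44. They belonged to the rest and had medians of 7959, 4983 and 24553 UMIs. Nuclei of the class with 1 to 1.5% numbered 80, 53 and 73, with medians of 8574.5, 8009 and 10471 UMIs. Nuclei in which Fgf13 and Fhl2 exceeded the 4 opposing genes by 1 UMI numbered 12, 11 and 9, held no UMI of Gja1 and held Rspo3 at 392, 601 and 51.2 CPM. In pools 1 and 2 these nuclei at the limit thus lay nearer to the Erc2 side in Rspo3 than to their own class.

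Each gene was then compared within a pool between summed Fgf13 Fhl2 nuclei and the other cardiomyocyte nuclei. Differences are on a log2 scale with 5 CPM added, as mean ± SD over the 3 within-pool differences. The rule used counts of these same nuclei, so no test is given, and a gene is named as higher or lower when it differed at least 2-fold in the same direction in each pool. Of 9550 genes with a mean of at least 10 CPM outside the 11 genes of the rule, 50 (0.524%) were higher and 60 (0.628%) lower, with a median difference over all genes of 0.03. Where no other set is named, a difference, count or median is against all other cardiomyocyte nuclei, and a level given after "against" is that of the Erc2 side. Against the Erc2 side alone, 57 of 9455 (0.603%) were higher and 65 (0.687%) lower. Of the 50 higher genes 44 were also higher against the Erc2 side, and of the 60 lower genes 51 were also lower. With only pools 2 and 3 required to agree, the higher genes numbered 90 and, against the Erc2 side, 128.

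Gja1 led the genes that were higher. It encodes connexin 43, the main gap junction protein of working ventricular muscle. Its level was 364, 424 and 288 CPM in the Fgf13 Fhl2 nuclei, 23.9, 20.6 and 15.3 on the Erc2 side and 52.8, 53.6 and 47.3 in the rest. All values of the class lay above those of both other sets, with a log2 difference of 3.64 ± 0.09 against the other cardiomyocyte nuclei, which is 12.5-fold. At 1000 UMIs per nucleus Gja1 was detected in 29.8% ± 2.48 of the class, 2.06% ± 0.561 of the Erc2 side and 3.61% ± 0.789 of endothelial-marker nuclei.

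A ligand and its receptor were both among the leading genes. Ntn1, which encodes the guidance protein netrin-1, stood at 129, 148 and 157 CPM against 7.68, 22.5 and 11.9 on the Erc2 side and 61, 62.3 and 65.9 in the rest. Its receptor gene Dcc was low in every set, at 35.7, 25.6 and 25.2 CPM against 1.71, 3.75 and 1.70. The log2 differences from the other cardiomyocyte nuclei were 2.87 ± 0.40 for Ntn1 and 2.26 ± 0.37 for Dcc.

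Nrp1, a co-receptor for class 3 semaphorins and vascular endothelial growth factor, stood at 807, 753 and 805 CPM against 194, 161 and 251 on the Erc2 side. The rest held 644, 741 and 769 CPM, below the class in each pool and far above the Erc2 side. After thinning, Nrp1 was seen in 47.5% ± 2.07 (SD, n = 3 pools) of the class, 36.6% ± 2.00 of the rest and 48.6% ± 3.79 of endothelial-marker nuclei. Sema3a, a semaphorin that binds Nrp1, went the other way, at 43.1, 43.4 and 46.8 CPM against 216, 294 and 262, a log2 difference of -2.36 ± 0.21 from the other cardiomyocyte nuclei.

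Hey2, a transcription factor of ventricular muscle and of endothelium, stood at 146, 162 and 132 CPM, 15.4, 15 and 25.5 on the Erc2 side and 86.3, 81.2 and 83 in the rest. After thinning it was detected in 13.1% ± 1.83 of the class and 0.932% ± 0.392 of the Erc2 side, and in 9.54% ± 0.514 of endothelial-marker nuclei, which are no background for this gene.

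The other leading higher genes were Ripor2 (2.52), Plekhh1 (2.45), A630039O03Rik (2.39), the cadherin gene Cdh20 (2.21), Gm39518 (2.19), Gm13481 (2.10), the kinase gene Tnik (1.89), the matrix gene Emilin2 (1.89) and Klhl4 (1.86), with log2 differences in brackets. A630039O03Rik had no UMI among the other cardiomyocyte nuclei of pool 3. Klhl4 was higher still in the rest, at 73.6, 112 and 98.2 CPM against 13.3, 21 and 32.7 in the class. Its difference dropped to 0.33 once cardiomyocyte nuclei with 3 or more endothelial-marker UMIs were left out, a setting chosen after seeing the data.

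The lowest genes of the class relative to the other cardiomyocyte nuclei were Gria1 and Rspo3. Gria1, a subunit of AMPA-type glutamate receptors, stood at 86.4, 68.1 and 107 CPM against 836, 1056 and 849 on the Erc2 side and 108, 78.3 and 138 in the rest. Snap25, which encodes a protein of vesicle fusion, stood at 12.9, 15.8 and 14 CPM against 114, 125 and 83.2. The class was below the rest in Gria1 in each pool, by less than it was below the Erc2 side. After thinning, Gria1 was seen in 6.08% ± 0.849 (SD, n = 3 pools) of the class, 46.8% ± 2.91 of the Erc2 side, 14.4% ± 4.29 of nuclei of neither side and 3.50% ± 0.956 of endothelial-marker nuclei.

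Rspo3 encodes an R-spondin, a secreted protein that strengthens Wnt signalling. Its level was 37.8, 40.3 and 45.6 CPM in the class and 426, 414 and 537 on the Erc2 side, 9.19-fold lower than in the other cardiomyocyte nuclei of both kinds. Isl1, a transcription factor of the second heart field that builds the outflow tract, stood at 7.28, 5.26 and 8.13 CPM against 72.5, 67.4 and 67.9. Neither gene overlapped between the sets in any pool.

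The remaining leading lower genes were LOC118568563 (-3.11), D030025E07Rik (-2.63), the slow skeletal myosin-binding protein gene Mybpc1 (-2.50), Sln, which encodes the calcium pump inhibitor sarcolipin (-2.39), Myl7 (-2.28), Fgf12 (-2.25), Amph, an adaptor of endocytosis (-2.20), the adhesion gene Ntm (-2.20), the phosphatase gene Ptpro (-2.16) and the basement membrane gene Fras1 (-2.10). Sln, Myl7 and Fgf12 were not lower by 2-fold in each pool against the Erc2 side alone. The nuclei of neither side held Myl7 at 1712, 3442 and 1411 CPM, above every other set.

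**Figure D2:**
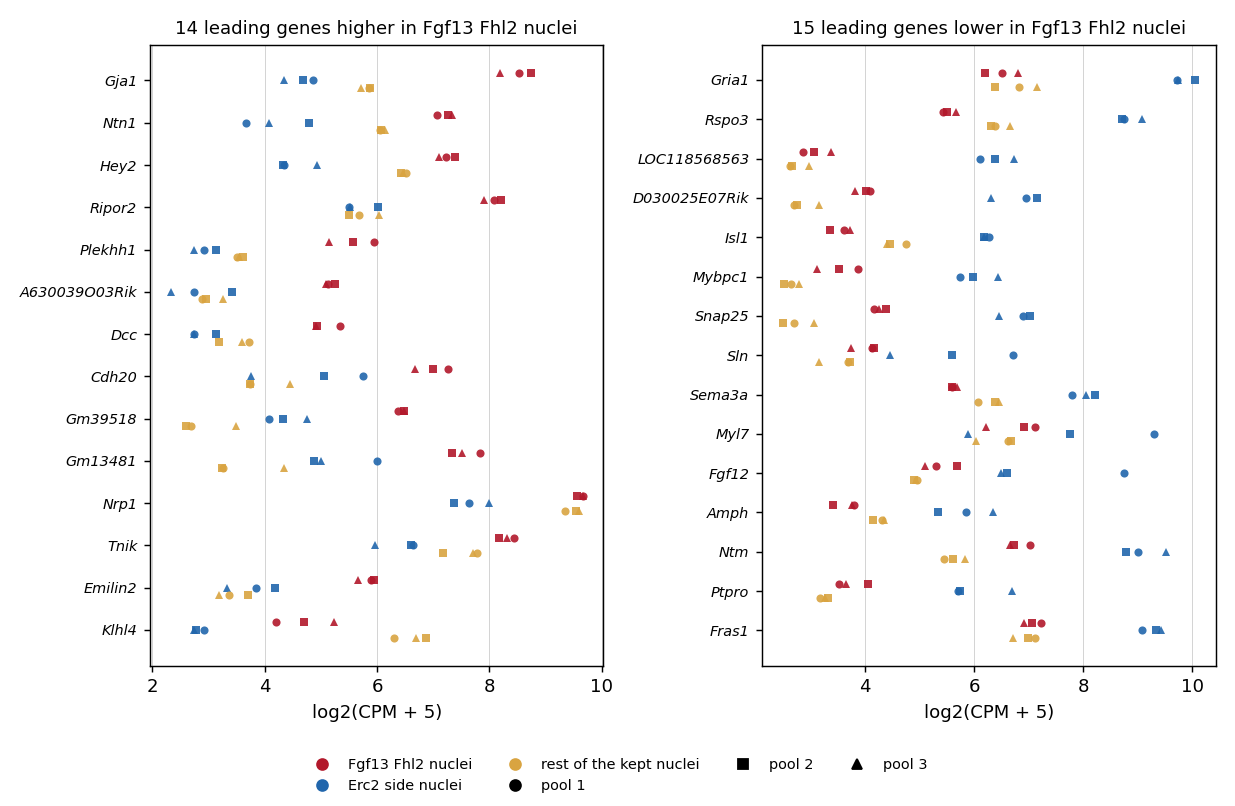
Levels of 14 of the 15 leading higher genes (left) and 15 leading lower genes (right), as log2(CPM + 5) on the x axis, with 1 point for each pool in the Fgf13 Fhl2 nuclei, the Erc2 side nuclei and the rest. Gja1 sits at 288 to 424 CPM in the Fgf13 Fhl2 nuclei and below 60 CPM elsewhere, while Myl7 in pool 3 does not differ in that direction from the Erc2 side.

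The sizes of the leading differences were also read on counts that did not choose the nuclei. The UMIs of each nucleus were divided at random into equal sets, 1 to choose the class and the other to read it, and there Gja1 differed by 3.30, Ntn1 by 2.81, Hey2 by 2.52, Gria1 by -3.08 and Rspo3 by -3.06 on the log2 scale. Matching by UMI total within pools kept every other cardiomyocyte nucleus and only 226, 115 and 148 nuclei of the class, those nearest in UMI total. There the same genes differed by 3.85, 3.03, 2.76, -3.05 and -4.18. The classes themselves were proposed with these data known, so both readings describe counting error and depth only. Irx4 was less stable, at 0.96 against 1.63 on all counts.

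Chamber genes placed most nuclei of the class on the ventricular side. More UMIs of the 6 ventricular genes than of the 12 atrial genes were present in 97.3% ± 0.442 (SD, n = 3 pools) of the nuclei, and in 90.4% ± 2.95 after thinning to 1000 UMIs. Without thinning the share was 95.2% ± 3.50 on the Erc2 side, 79.3% ± 5.24 in nuclei of neither side and 60.2% ± 10.3 in endothelial-marker nuclei. The thinned share was 87.3% ± 3.05 on the Erc2 side, 75.1% ± 5.40 in nuclei of neither side and 37.0% ± 6.71 in endothelial-marker nuclei, of which 39.1% held no UMI of either list at that depth. The difference between the class and the Erc2 side was about the size of the spread over pools. Within pools the thinned share was 90.5%, 93.3% and 87.4% in the class and 84.5%, 90.5% and 87.0% on the Erc2 side. Without thinning the order was the opposite in pool 3, at 96.8% and 98.3%. The summed ventricular genes stood at 4155, 4804 and 3338 CPM in the class, below the 4294, 5318 and 3723 CPM of all other cardiomyocyte nuclei in each pool and above the 3213, 4596 and 3147 CPM of the Erc2 side. Nuclei of neither side held 12573, 9071 and 7065 CPM.

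Of the 6 ventricular genes, all measured, Hey2 and Irx4 were higher in the class, as 0.524% of all genes were, and none was lower. The list's median was 0.03 beside 0.03 over all genes, and ran from -0.27 with no mitochondrial limit to 0.39 with at least 2000 UMIs, with 0.30 for nuclei matched by UMI total. Against the Erc2 side the list's median was 0.71 beside 0.05 over all genes. Irx4, a transcription factor that maintains ventricular identity, stood at 53.6, 45.2 and 28.5 CPM against 12.8, 7.49 and 3.40 on the Erc2 side. Myl2, the ventricular regulatory light chain, stood at 1669, 1925 and 1178 CPM against 572, 1013 and 442, a log2 difference of 1.29 ± 0.32 from the Erc2 side that missed 2-fold in 1 pool. The slow myosin Myh7 was lower on average, at -1.03 ± 0.24 from the other cardiomyocyte nuclei, without reaching 2-fold in each pool.

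Of 9 measured atrial genes, Myl7, Myl4 and Sln were lower against the other cardiomyocyte nuclei, where 0.628% of all genes were, and none was higher. The list's median was -0.46, and ran from -0.21 without pool 2 to -0.88 with nuclei matched by UMI total, with -0.78 without pool 3. Myl7 and Myl4 are atrial myosin light chains. Here the class held Myl7 at 134, 115 and 69.9 CPM and the Erc2 side at 626, 212 and 54.4, so the order reversed in pool 3. Myl4 followed the same order, at 103, 96.7 and 55 CPM against 503, 155 and 51. None of the 9 was lower by 2-fold in each pool against the Erc2 side, where 0.687% of all genes were. At any size, 1 of the 9 (Sln) was lower there in 3 of 3 pools and 1 was higher, where 15.3% and 23.9% of all genes were.

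Among conduction and pacemaker genes, Cacna1d, Rgs6 and Isl1 were the 3 of 11 measured that were lower against the other cardiomyocyte nuclei, where 0.628% of all genes were, and none was higher. The list's median was -0.30 there and 0.46 against the Erc2 side, where 4 of 10 measured genes were higher and 4 lower in 3 of 3 pools at any size, as 23.9% and 15.3% of all genes were. The first median was -0.18, -0.14 and -0.13 without pool 1, 2 and 3, and 0.04 with nuclei of 3 or more endothelial-marker UMIs left out. Cacna1d, the L-type calcium channel of pacemaker cells, stood at 805, 1038 and 998 CPM against 3036, 4215 and 4207 on the Erc2 side and 100.01, 118 and 221 in the rest. Rgs6, a brake on muscarinic receptor signalling, stood at 925, 933 and 750.0 against 2026, 2149.8 and 2065, and its difference of -1.19 from the other cardiomyocyte nuclei was -0.90 with nuclei matched by UMI total. Gjc1, the connexin 45 gene of slowly conducting cells, stood at 180.4, 184 and 178 CPM against 334, 356 and 348, a log2 difference of -0.92 ± 0.04 from the Erc2 side that missed the 2-fold limit. Hcn4 and Shox2 did not reach 10 CPM.

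In the list of outflow tract and right ventricle genes none was higher. Isl1 and Rspo3 were the 2 of 5 measured that were lower in each pool, as 0.628% of all genes were, and Bmp4 stood at 21.1, 18.4 and 28.8 CPM against 56.3, 93.6 and 44.2 on the Erc2 side, a log2 difference of -1.28 ± 0.77. Against all other cardiomyocyte nuclei the median of these 5 genes was -1.18 beside 0.03 over all genes, and ran from -0.81 without pool 2 to -2.57 without nuclei of 3 or more endothelial-marker UMIs. Hand2 and Sema3c differed less from those nuclei, by -0.40 ± 0.15 and -0.59 ± 0.59.

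Fgf12 and Fgf14 are relatives of Fgf13. Fgf12 stood at 34.4, 46.2 and 29.1 CPM against 427, 91.8 and 84.9, and Fgf14 at 257, 219 and 244 against 517, 910.1 and 837. Both encode homologous factors that bind sodium channels as FGF13 does. Fgf12 was lower by 2-fold in each pool against the other cardiomyocyte nuclei, with the largest difference in pool 1, but not against the Erc2 side. Fgf14 missed 2-fold in 1 pool, with a mean of -1.57 ± 0.56 from the other cardiomyocyte nuclei. Fgf11 did not reach 10 CPM. The anchoring gene Ank2 differed by 0.66 ± 0.19 and Ank3 by -0.49 ± 0.17.

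Of 16 measured potassium channel genes, only Abcc9 passed in each pool, as higher, where 0.524% of all genes did. Abcc9 encodes the SUR2 subunit of ATP-sensitive potassium channels and stood at 277, 296 and 279.9 CPM against 64.8, 71.2 and 114 on the Erc2 side and 92.4, 83.7 and 108 in the rest. Kcnip2, the subunit that shapes the transient outward current, stood at 57.3, 55.5 and 44.6 CPM against 12.8, 15 and 25.5, and its pore gene Kcnd2 at 282, 366 and 326 against 145, 290.3 and 229. Their log2 differences from the Erc2 side were 1.37 ± 0.59 and 0.59 ± 0.31. Kcnd3, another pore gene of this current, differed by -0.89 ± 0.72 from the other cardiomyocyte nuclei.

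**Figure D3:**
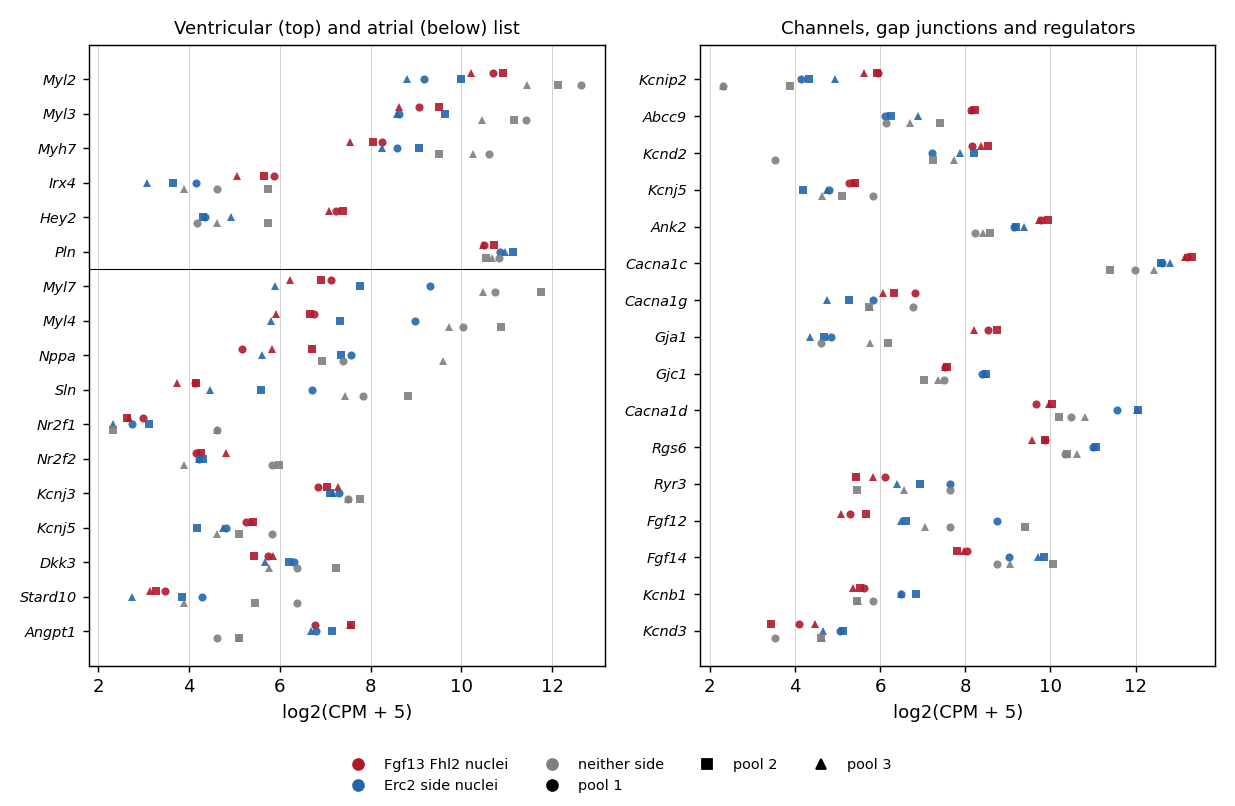
Levels of ventricular genes (left, above the line), atrial genes (left, below the line) and channel, gap junction and related genes (right), as log2(CPM + 5) on the x axis, with 1 point for each pool in the Fgf13 Fhl2 nuclei, the Erc2 side nuclei and nuclei of neither side. Gja1 is high in the Fgf13 Fhl2 nuclei and low on the Erc2 side, and the atrial light chains Myl7 and Myl4 are highest on neither side.

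Contractile and calcium handling genes were read in the same way. None of 31 measured sarcomere genes and none of 17 measured calcium handling genes passed in each pool, where 0.524% of all genes were higher and 0.628% lower. Atp2a2, the calcium pump of the sarcoplasmic reticulum, differed by 0.13 ± 0.08, Casq2 by 0.07 ± 0.13 and Nexn by -0.02 ± 0.05. Of the sarcomere genes 20 were lower and 5 higher in 3 of 3 pools at any size, where 17.6% of all genes were lower and 22.9% higher, and the list had a median of -0.31 against the other cardiomyocyte nuclei and -0.13 against the Erc2 side. The first median was -0.07 with nuclei matched by UMI total and -0.16 with nuclei of 3 or more endothelial-marker UMIs left out. Cacna1c, the main L-type calcium channel of working muscle, stood at 9416, 10248 and 9175 CPM against 6293, 6191 and 7102, the opposite order to Cacna1d. Ryr2 itself, a gene of the rule, stood at 11018, 12345 and 10782 CPM against 3943, 4191 and 4321.

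Of 21 measured cardiac transcription factors, Prdm16 alone was higher, as 0.524% of all genes were, and none was lower. Prdm16, a factor tied to compact ventricular muscle, stood at 373, 317 and 346 CPM against 158, 129 and 155. Meis2 and Gata4 differed from the other cardiomyocyte nuclei by 0.70 ± 0.14 and 0.53 ± 0.14. Gata6, Mef2c, Mef2d, Tead1 and Prox1 each differed by less than 0.2 on average, and Tbx20 and Myocd lay lower, at -0.44 ± 0.13 and -0.33 ± 0.07.

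At the intercalated disc, where neighbouring cardiomyocytes are joined, Gja1 was the 1 gene of 20 that passed, as higher, where 0.524% of all genes did. The junction genes Cdh2, Jup, Pkp2 and Dsp differed by 0.13, 0.01, -0.22 and -0.28. No gene of 32 measured in energy metabolism and none of 10 in the FHL family and calcineurin list passed in each pool. Of all genes 0.524% were higher and 0.628% lower. Fhl1, the closest relative of Fhl2 in the list, stood at 175, 122 and 209.6 CPM against 171, 89.9 and 112, and Fhl3 and Fhl5 were below 10 CPM.

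**Figure D4:**
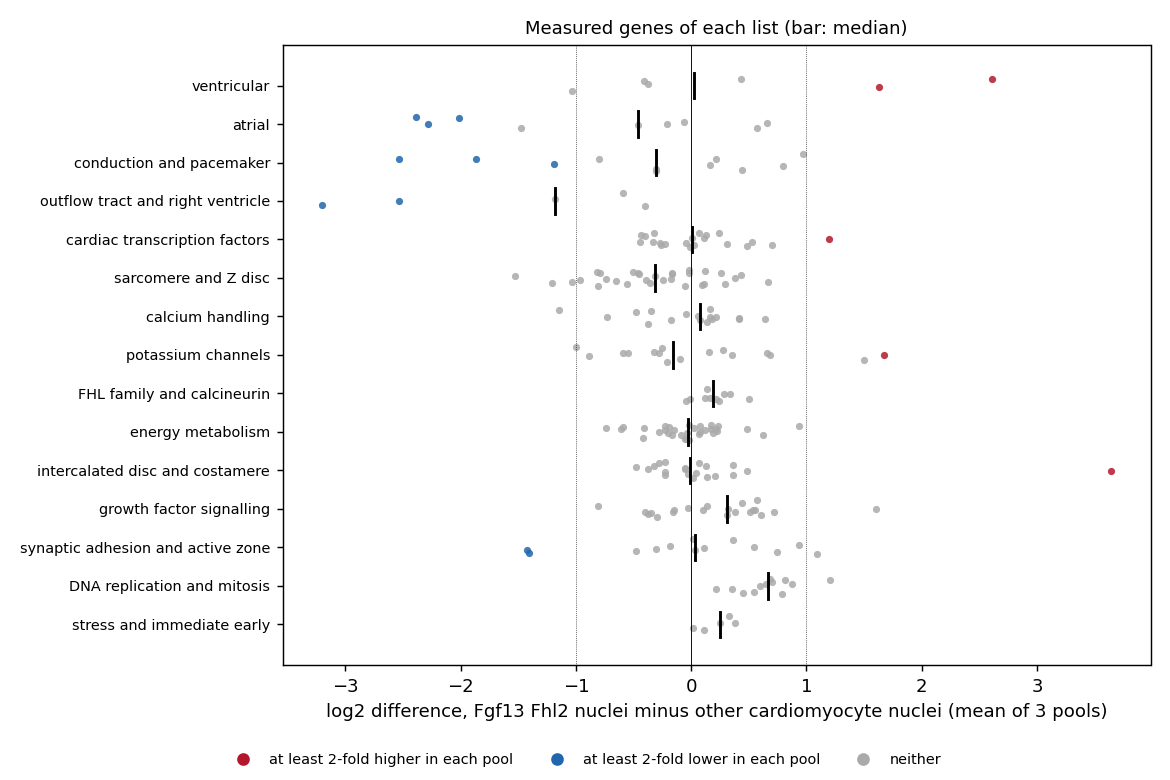
Log2 difference between Fgf13 Fhl2 nuclei and the other cardiomyocyte nuclei (x axis, mean of 3 pools) for each measured gene of 15 lists (y axis), with the median of each list as a bar and dotted lines at 2-fold. Most lists centre near 0, with single genes far out, such as Gja1 at 3.64, Rspo3 at -3.20 and Isl1 at -2.54.

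None of 21 measured growth factor genes passed against the other cardiomyocyte nuclei, where 0.524% of all genes were higher and 0.628% lower. Nrg1, the ligand of ERBB receptors, passed as higher against the Erc2 side alone, where 0.603% of all genes did. It stood at 32.1, 13.8 and 47.3 CPM against 5.12, 1.87 and 6.79. That difference of 1.83 dropped to 0.15 once nuclei with 3 or more endothelial-marker UMIs were left out, to 0.45 with the cardiomyocyte genes at 2%, to 0.77 with nuclei matched by UMI total and to 0.96 with doublets left out. Its receptor gene Erbb4 differed from the Erc2 side by -0.49 ± 0.07. Of 13 measured genes of synaptic adhesion and the active zone, the scaffold genes Rims1 and Dlg2 were lower, as 0.628% of all genes were, and none was higher, where 0.524% were. Rims1 stood at 141, 174 and 174 CPM against 403, 493 and 535, and Dlg2 at 125, 108 and 178 against 341, 431 and 414. Of 5 measured stress and immediate early genes none passed, where 0.524% of all genes were higher and 0.628% lower.

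Cell cycle genes were somewhat higher in the class, without any passing 2-fold in each pool, where 0.524% of all genes were higher. Of 12 measured genes of DNA replication and mitosis, 11 were higher in 3 of 3 pools at any size, as 22.9% of all 9550 genes were, with a list median of 0.66 against 0.03 over all genes. Top2a, which untangles DNA for division, stood at 48.3, 41 and 32.8 CPM against 31.6, 15 and 11.9, and Knl1, a kinetochore gene, at 37, 25.2 and 24.1 against 18.8, 7.49 and 5.10. After thinning, 4.83% ± 1.14 (SD, n = 3 pools) of the class held 2 or more UMIs of the list, against 3.23% ± 1.78 of all other cardiomyocyte nuclei, a difference within the spread over pools. In pool 2 the order was the opposite, at 4.75% of the class and 5.22% of the other cardiomyocyte nuclei. The Erc2 side held 1.32% ± 0.428, nuclei of neither side 7.74% ± 5.27 and endothelial-marker nuclei 8.98% ± 0.795. Without thinning the shares were 19.7% of the class, 15.1% of the other cardiomyocyte nuclei, 15.5% of the Erc2 side, 13.7% of neither side and 25.2% of endothelial-marker nuclei.

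Endothelial, smooth muscle, erythroid and macrophage markers were also summed in each class. The 10 endothelial markers summed to 427 to 622 CPM in the class, 226 to 268 on the Erc2 side and 2271 to 2896 in the rest, with none at 0. The list's median difference was 0.67, with 8 of 10 higher in 3 of 3 pools at any size, as 22.9% of all genes were, and none passing 2-fold in each. Smooth muscle markers summed to 307 to 616 CPM against 137 to 451 and 938 to 1741. The 6 erythroid markers summed to 255 to 1305 against 194 to 294 and 2281 to 5533. For both lists the class was above the Erc2 side in each pool. In the class, macrophage markers summed to 32 to 54.2 CPM against 5.10 to 17.1, with the class above in each pool. Fibroblast markers did not separate the class from the Erc2 side, at 1284, 1411 and 1264 CPM against 1370.2, 1405 and 848. Their median difference from the other cardiomyocyte nuclei was -0.14, and ran from -0.65 with nuclei matched by UMI total to 0.05 without pool 2. No marker of these 5 lists passed 2-fold in each pool, where 0.524% of all genes were higher and 0.628% lower. The valve interstitial, Schwann and neural and pericyte lists also had none that passed, and no mesothelial or adipocyte marker reached a mean of 10 CPM in the comparisons among cardiomyocyte nuclei. The mesothelial markers summed to 16.1 to 37.2 CPM in the class and 192 to 411 in the rest, where all 6 were measured and higher than in the class.

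With nuclei matched by UMI total, the endothelial list's median was -0.20 and that of the cell cycle list 0.44. With cardiomyocyte nuclei of 3 or more endothelial-marker UMIs left out, a choice that itself lowers the endothelial list, the median of the cell cycle list was 1.04, and Gja1, Ntn1 and Hey2 differed by 4.05, 3.70 and 3.21. Such nuclei made up 14.2% ± 3.03 (SD, n = 3 pools) of the class and 9.56% ± 3.87 of the Erc2 side. Nuclei with at least 2 Xist UMIs and a UMI of a Y-linked gene, which carry RNA of both sexes, were 14.7% ± 2.56 of the class, 9.44% ± 2.37 of the Erc2 side and 9.45% ± 1.41 of the rest.

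Against the rest, 27 of 31 measured sarcomere genes, 12 of 17 of calcium handling and 22 of 31 of energy metabolism were higher in the class, with list medians of 2.06, 2.08 and 1.47. All 10 endothelial markers were lower. Of 10280 genes, 577 (5.61%) were higher and 982 (9.55%) lower in each pool, and the median over all genes was -0.28. TMM scaling moved that median to -0.06 and the counts to 751 and 597, so the split between higher and lower depends on scaling. Leaving out pool 3 gave 677 and 1501. Of the 50 genes higher against other cardiomyocyte nuclei, 25 were also among the 577, which is 50.0% of the first list and 4.33% of the second, and 6 were lower against the rest.

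The cardiomyocyte label held on markers outside the rule. Of 10 such markers 9 were measured and 8 were higher against the rest in each pool, and their sum was 8838 to 10306 CPM in the class, 10878 to 11719 on the Erc2 side and 1128 to 1607 in the rest. Rbm20, a splicing regulator of titin, stood at 3699, 3782 and 3486 CPM against 66.3, 63.5 and 224 in the rest, where pool 3 was highest. The class sum was below that of the Erc2 side in every pool.

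The leading genes against the rest were D830005E20Rik, Rbm20, Trim55, Gm31251, Mlip, Kcnn2, Tnni3k, Mhrt, Fhod3, Trdn, Ddc, Rbm24, Snap91, Ppp1r14c and Myo18b, with log2 differences from 5.53 to 4.08. Of the 15, D830005E20Rik alone also passed against the other cardiomyocyte nuclei, where 0.524% of all genes were higher. It stood at 759, 893 and 721 CPM against 346, 308 and 303. Trim55, a sarcomere ubiquitin ligase, differed from the other cardiomyocyte nuclei by 0.25 ± 0.15, and Myo18b, an unconventional myosin, by 0.00 ± 0.19.

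Sex was not used by the rule, so the class was also tested between female and male nuclei of the same pools. Female nuclei (at least 2 Xist UMIs and none of 4 Y-linked genes) numbered 298, 225 and 305, and male nuclei (a Y-linked UMI and no Xist) 533, 302 and 331, and 235, 146 and 198 met neither condition. Of 11364 genes tested with edgeR's quasi-likelihood test with pool as a block, 2 (0.0176%) were higher in females and 3 (0.0264%) lower at a Benjamini-Hochberg adjusted p under 0.05. The pools are the only replicates, and the block takes out differences between them. The p-values thus set the female to male difference against its variation over the 3 pools.

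Kdm6a and Kdm5c, X-linked histone demethylases known to escape X inactivation, were higher in females. Kdm6a stood at 344, 372 and 362 CPM in females and 164, 206 and 215 in males, and Kdm5c at 202, 173 and 165 against 118, 119 and 113, with no overlap for either. The log2 differences were 0.88 (SE 0.09) with an edgeR adjusted p of 6.627e-05 and 0.61 (SE 0.10) with 0.01949, higher in females in 3 of 3 pools.

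Myl7 was the autosomal gene with the smallest adjusted p, and lower in females in 3 of 3 pools. It stood at 81.8, 76.9 and 44.1 CPM in females and 140.4, 138 and 75.9 in males. The log2 difference was -0.82 (SE 0.11) with an edgeR adjusted p of 0.002024. After thinning, Myl7 was seen in 6.84% ± 1.73 (SD, n = 3 pools) of the class. It was seen in 6.95% ± 1.67 of endothelial-marker nuclei, the background of free RNA. The part of free RNA in the difference between sexes was not tested. Dct, an enzyme of pigment cells, stood at 8.13, 7.81 and 4.76 against 22.2, 32.8 and 9.93. Zfp804b stood at 5.26, 7.81 and 8.93 against 8.82, 43.1 and 22.8. Their edgeR adjusted p were 0.01949 and 0.03183, and their female means were low, at 6.90 and 7.33 CPM. Fgf13, which is X-linked, stood at 2624, 2935 and 3076 CPM in females and 3188, 3042 and 3479.7 in males, given as a description with no test because the rule used its UMIs. Without pool 1 no gene passed in edgeR, with 532 genes at an unadjusted p under 0.05 and Kdm6a at an adjusted p of 0.1413. DESeq2 on all pools called Kdm6a alone, so all 5 calls depend on pool 1 and those for Myl7, Dct, Zfp804b and Kdm5c also on the tool. The log2 differences without pool 1 and with DESeq2 were 0.80 and 0.88 for Kdm6a, -0.83 and -0.82 for Myl7, and 0.54 and 0.61 for Kdm5c. For Dct they were -1.74 and -1.58, and for Zfp804b -1.96 and -1.57. Leaving out pool 2 gave 11 genes without Dct (a difference of -1.35, edgeR adjusted p of 0.1907) and Zfp804b (-1.10, edgeR adjusted p of 0.5219), and leaving out pool 3 gave 19 genes.

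Scx and the EGFP reporter were low in the class. Scx, the tendon transcription factor whose locus carries the reporter, stood at 0.502, 0.350 and 0.143 CPM in the class and 0.645, 0.224 and 0.840 CPM in the rest. EGFP stood at 5.40, 3.85 and 3.85 CPM in the class and 8.97, 12 and 7.56 in the rest. Neither reached the 10 CPM needed for a comparison.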

How the data were processed

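Nuclear RNA of 3 pooled replicates was read as UMI counts per gene and nucleus. The authors deposited whole-number counts in 1 filtered matrix a pool, made with Cell Ranger 7.1.0 per the file headers. Cell Ranger 7.0.1 and 7.1.0 and GRCm39 are named in the submitters' processing notes, and the gene annotation is not given in the sources used here. Free RNA was not removed.

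Nuclei were classed by the rule and their counts summed per pool and class. CPM of these sums was compared within pools as log2(CPM + 5), over genes with a mean of at least 10 CPM. These contrasts carry no test, because the rule used the same counts. The members and lists were chosen with earlier results of these data known. Named genes are the 15 highest and 15 lowest against other cardiomyocyte nuclei, the 10 highest and 10 lowest against the Erc2 side, the 15 highest against the rest, up to 10 for sex, and genes of the lists. A gene named by this rule is not reported here.

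Female and male nuclei were summed per pool and tested with edgeR 4.0.16 (TMM, filterByExpr, pool as a block, since both sexes of a pool come from 1 library), with Benjamini-Hochberg adjustment over all genes. Xist, Tsix and the 4 Y-linked genes were left out, and the genes of the rule stayed in the fit but are given no p. DESeq2 1.42.0 was an alternative. The scripts were tested on simulated data. Doublets were kept: the automatic threshold of Scrublet (scanpy 1.11.5) marked 0, 0 and 1 nuclei. An alternative left out the highest 0.8% per 1000 nuclei (640, 165 and 146). It kept 2221 of 2573 nuclei of the class, 445 of 489 other cardiomyocyte nuclei and 10465 of 11011 of the rest. Nuclei were thinned at random to 1000 UMIs for shares, and endothelial-marker nuclei are those of the rest with at least 3 UMIs of 10 endothelial markers. Python 3.11.15 and R 4.3.3 were used. Promoter windows came from a RefSeq table of GRCm38.p6 and were not joined to the counts by position.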

Additional observations from a re-analysis of the deposited data

How the results depend on the processing

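The share of cardiomyocyte nuclei in the Fgf13 Fhl2 class was 84.3% as reported, 76.0% with no mitochondrial limit, 86.8% with the cardiomyocyte genes at 2% of UMIs, 81.6% with Fgf13 and Fhl2 at 4 UMIs, and 83.7 to 85.2% with 1 pool left out. Genes higher against the other cardiomyocyte nuclei numbered 50, and 67 to 90 with 1 pool left out. Against the Erc2 side they numbered 57, and 71 to 128 with 1 pool left out. Genes lower against the rest numbered 982, and 1644 with the cardiomyocyte genes at 2%, 597 with TMM and 650 with a mean of at least 30 CPM. They numbered 1699 with cardiomyocyte nuclei of 3 or more endothelial-marker UMIs left out, where all 11011 nuclei of the rest stayed. With 1 pool left out they numbered 997 to 1501. The other counts of higher and lower genes stayed within 1.5 times under every alternative run, and none of the named or listed genes called in 1 of the 3 comparisons of classes changed sign in it. The nuclei of neither side numbered 126, 67 with at least 2000 UMIs, 76 with the cardiomyocyte genes at 2%, 578 with no mitochondrial limit and 255 with Fgf13 and Fhl2 at 4 UMIs, and the other cardiomyocyte nuclei 489 and, with no mitochondrial limit, 972. Leaving out cardiomyocyte nuclei with 3 or more endothelial-marker UMIs, or nuclei above 50000 UMIs, was chosen after seeing the data.

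The sex test gave 5 genes, 34 with no filter on low counts, 8 with females called from 1 Xist UMI, 1 with DESeq2 (67 genes at an unadjusted p under 0.05) and 0 to 19 with 1 pool left out. With no replicate block for the pool, edgeR called 0 genes (243 at an unadjusted p under 0.05). The log2 differences there were 0.87 for Kdm6a, -0.83 for Myl7, 0.61 for Kdm5c, -1.68 for Dct and -1.76 for Zfp804b.

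The comparisons with other cardiomyocyte nuclei rest on few nuclei, 363 of the Erc2 side and 126 of neither side over the 3 pools.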
